A study of Mus musculus with 14 samples.

Results

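The mitochondrial ribosome, or mitoribosome, translates the few mRNAs that the mitochondrial genome encodes, all of them for subunits of the respiratory chain and ATP synthase. Its RNA is made in the organelle, whereas its proteins come from nuclear genes, are made in the cytosol and are imported. Genes of the large subunit are named Mrpl and those of the small subunit Mrps. HSC are known for a low rate of mitochondrial respiration and a low rate of protein synthesis, and mitochondrial function is known to change in aging HSC.

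The genes described here were chosen by name. They are the genes with a single symbol in the probe annotation that begins with Mrpl or Mrps and a number, 74 of the 12393 genes measured, 47 of the large subunit and 27 of the small subunit. These genes held 127 probe sets, and for each gene the brightest one, by its mean on the 8 wild-type (WT) HSC arrays, was read. For 33 of the 74 genes this choice was made among more than 1 probe set. Another 3 probe sets carry such a symbol together with a second gene and were left out. On at least 2 of the 14 arrays 68 of the 74 genes reached a log2 value of 5, taken here as the lower end of readable signal. Mrpl14, Mrpl37, Mrpl54, Mrpl55, Mrps11 and Mrps35 did not, so changes of these 6 genes are read near the floor of the array.

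HSC were side population cells, which pump out Hoechst dye, sorted further as lineage-negative cells bearing c-Kit and Sca-1, from male C57Bl/6 mice. WT HSC came from mice of 4 ages (2, 6, 12, 21 mo), and unsorted WT whole bone marrow (WBM) from mice of 2 mo. HSC of 12-mo-old p53+/- mice, with 1 functional copy of p53, and of 12-mo-old p53+/m mice, whose m allele is a truncated p53 that is known to raise p53 activity, were from lines crossed back to C57Bl/6. Each of the 7 groups had 2 arrays, A and B, RNA on an HSC array was pooled from 2 to 5 mice and amplified in 2 rounds, so p-values measure the spread between pools. All values are log2 GC-RMA values, and a difference of 1 is a 2-fold difference. No level of 1 gene is set against that of another, because probe sets differ in brightness.

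Some facts of the whole series bear on these genes. The mean level of 12 HSC markers was between 8.46 and 9.23 on the HSC arrays and at most 5.79 in WBM, whereas 9 erythroid markers averaged at most 3.49 in HSC and at least 10.8 in WBM. Of the HSC markers, Mecom and Thy1 were read near the floor in both. Over all probe sets the 12 mo A array lay beside the 21 mo arrays on the first principal component (42.1% of the variance) and the 12 mo B array beside those at 2 mo. The 5′ probe set for 18S ribosomal RNA, a control for what was amplified, was 10.9 on either of the 2 mo arrays, 11.2 and 8.28 at 6 mo, 4.66 and 9.68 at 12 mo, 4.84 and 5.44 at 21 mo, and between 5.14 and 8.92 on the other 6 arrays. It was thus high at 2 mo and low at 21 mo. The 3′ minus 5′ difference of the actin control was 4.59 and 4.65 at 2 mo and 3.11 and 3.55 at 21 mo. For Gapdh it was 3.91 and 3.68 at 2 mo and 3.19 and 4.09 at 21 mo. Both were largest on 12 mo B (6.27 and 5.42), with 3.34 and 4.07 on 12 mo A. The part of these differences in the results was not tested.

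Most mitoribosomal protein genes were read lower in older HSC. The change from 2 to 21 mo, taken from a quadratic trend over the 8 WT HSC arrays, was negative for 63 of the 74 genes, with a median of −0.73. Among all 12393 genes 67.3% were negative with a median of −0.02. Among the 6788 genes that reached log2 5 on at least 2 arrays, 51.6% were negative with a median of −0.02. Past the threshold of a Benjamini-Hochberg adjusted p under 0.05 in limma and a 2-fold change, 7 genes fell and 0 rose. Of all genes, 2.03% fell and 1.45% rose by this rule, and of the genes that reached log2 5, 3.57% fell. Without the adjustment (p of 0.05 or less, 2-fold), 24 mitoribosomal genes were lower and 0 higher, against 7.72% and 6.68% of all genes.

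The decline in the group means was spread over the 4 ages. The median difference from 2 mo was −0.24 at 6 mo, −0.56 at 12 mo and −0.70 at 21 mo. In 34 of the 74 genes (45.9%) the mean fell at each of the 3 steps. Among all genes this share was 11.7%, and among those that reached log2 5 it was 15.7%. The 2 mo mean was the highest of the 6 HSC groups in 52 of the 74 (70.3%), against 22% of all genes. Both 21 mo arrays lay below both 2 mo arrays in 50 genes and above them in 5, while among genes that reached log2 5 these shares were 40.1% and 36% (49.4% and 21.1% of all genes). On single arrays the members' median difference from 2 mo was −0.13 and −0.33 at 6 mo, −0.64 and −0.51 at 12 mo, and −0.52 and −0.89 at 21 mo. The medians of the 12 mo arrays were thus close, but the genes themselves were not. Gene by gene, 12 mo A minus 12 mo B had a median of −0.22, and the SD between the 12 mo arrays had a median of 0.31 over the 74 genes, the largest of the 7 groups, with up to 1.99 in Mrpl9.

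**Figure D1:**
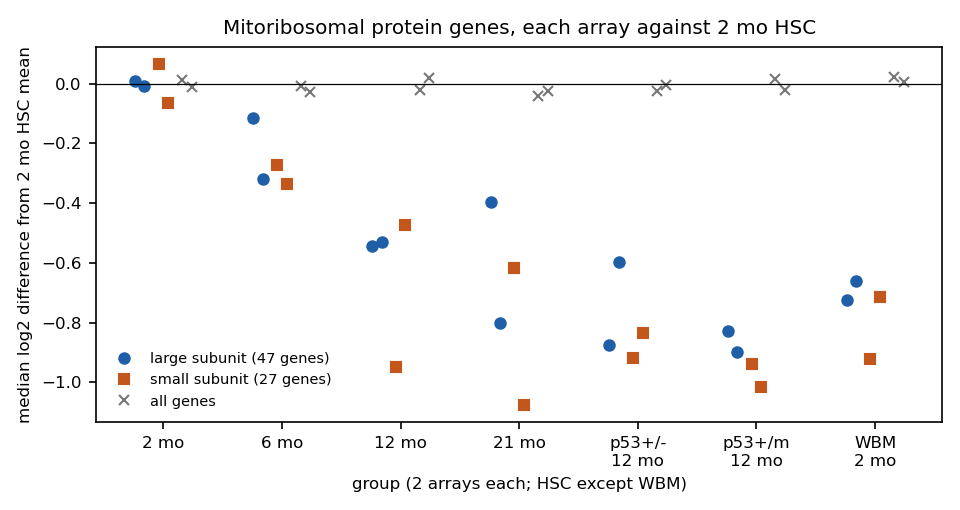
Median log2 difference from the mean of the 2 mo HSC arrays (y axis) over the 47 large subunit genes (circles), the 27 small subunit genes (squares) and all 12393 genes (crosses), 1 point for each of the 2 arrays in each of 7 groups (x axis). The crosses stay near 0, and the mitoribosomal genes lie below 0 on every array other than those at 2 mo.

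Each of the 7 genes that fell encodes a structural part of the mitoribosome, 4 in the small and 3 in the large subunit. Mrps7, related to a bacterial protein at the head of the small subunit, read 8.72 and 8.97 at 2 mo, 8.52 and 8.51 at 6 mo, 7.46 and 8.15 at 12 mo, and 7.04 and 7.16 at 21 mo. Its trend fell by 1.79 ± 0.21 (SE), which is 3.45-fold, with an adjusted p of 0.023. The 21 mo arrays lay below all 6 others, and the 6 mo arrays just below those at 2 mo.

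Mrpl43, a large subunit protein that bacteria lack, read 7.66 and 7.69 at 2 mo, 6.82 and 6.50 at 6 mo, 6.13 and 6.14 at 12 mo, and 5.66 and 6.01 at 21 mo. It fell by 1.75 ± 0.17 (limma adjusted p = 0.018), and the arrays of neighbouring ages did not overlap. Its 6 mo arrays already lay far below those at 2 mo. Mrpl44, which resembles ribonuclease III and is needed to assemble the large subunit, read 9.80 on both arrays at 2 mo, 9.58 and 9.73 at 6 mo, 8.37 and 8.59 at 12 mo, and 8.47 and 8.04 at 21 mo. It fell by 1.74 ± 0.26 (limma adjusted p = 0.034), most of it between 6 and 12 mo. A further probe set of Mrpl44 gave −2.09 with an adjusted p of 0.070, and another, read near the floor, gave −0.11.

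Mrps34, a small subunit protein that bacteria lack and that is mutated in a form of Leigh syndrome, read 8.15 and 7.89 at 2 mo, 7.89 and 7.74 at 6 mo, 6.99 and 7.55 at 12 mo, and 6.59 and 6.19 at 21 mo. It fell by 1.66 ± 0.21 (limma adjusted p = 0.025), and among WT HSC it was lowest on the 21 mo arrays. Mrps28, another small subunit protein, read 6.29 and 5.77 at 2 mo, 5.35 and 5.69 at 6 mo, 4.62 and 4.85 at 12 mo, and 4.82 and 4.83 at 21 mo. It fell by 1.27 ± 0.20 (limma adjusted p = 0.038) and was under log2 5 from 12 mo on, so its older values are loose.

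Mrpl2, the counterpart of a bacterial protein beside the site where peptide bonds form, read 8.63 and 8.73 at 2 mo, 8.66 and 8.61 at 6 mo, 8.01 and 8.0 at 12 mo, and 7.62 and 7.41 at 21 mo. Its fall of 1.25 ± 0.13 (limma adjusted p = 0.019) came after 6 mo. Mrps18b read 8.62 and 8.50 at 2 mo, 8.57 and 8.20 at 6 mo, 8.03 and 8.01 at 12 mo, and 7.58 and 7.38 at 21 mo, and fell by 1.10 ± 0.12 (limma adjusted p = 0.021). These genes differed in timing, with Mrpl43 lower from 6 mo, Mrpl44 and Mrps28 with overlapping arrays at 12 and 21 mo, and Mrpl2 and Mrps18b lower again at 21 mo, and no test compared the timings.

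**Figure D2:**
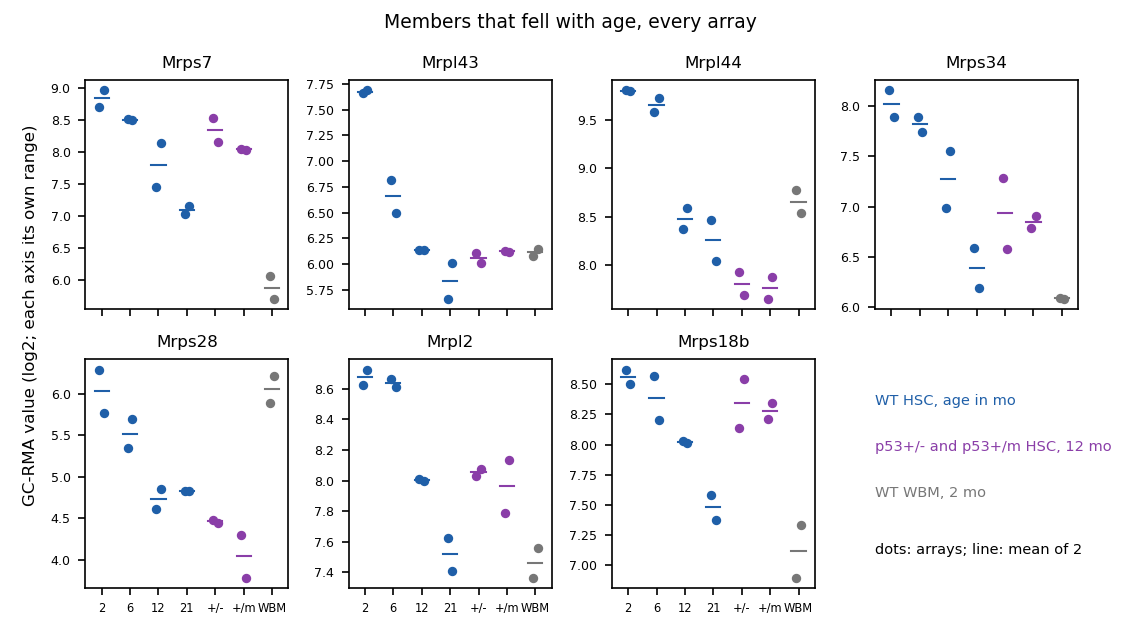
GC-RMA value (log2, y axis, each panel on its own range) of the 7 genes that fell with age, on every array of the 7 groups (x axis: WT HSC at 2, 6, 12 and 21 mo, p53+/- and p53+/m HSC at 12 mo, WT WBM at 2 mo). Dots are arrays and lines the mean of 2. In every panel the 2 mo HSC arrays lie above those at 21 mo.

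The count of 7 rested on single arrays, whereas the sign of the median did not. For the fits with arrays left out, shares of all genes were computed with the adjustment only. The counts given here without it therefore have no background and are not weighed. In limma 0 genes passed the threshold without 2 mo A (20 lower and 1 higher without the adjustment), and 0 without 2 mo B (22 lower and 0 higher). Of all genes, 0.153% and 0.00807% fell in these fits. Without 1 array at 6 or 21 mo between 1 and 4 passed, where 0.0968% to 0.783% of all genes fell. Without 12 mo A 11 passed, where 3.56% of all genes fell, without 12 mo B 19 (5.89%), and without the pair of them 17 (5.54%). The count over all genes therefore rose and fell with that of the members. With the 2 mo arrays left out, so that 21 mo was set against 6 mo, the median was −0.46, beside −0.01 over all genes. In this contrast 61 of the 74 genes were negative, but 0 passed in limma (7 lower and 0 higher without the adjustment). Of all genes, 0.0646% passed as lower. With probe sets under log2 5 left out of the fit, 20 of 68 passed, where 11.4% of the genes kept fell. Over every array left out the median of the trend stayed between −0.92 and −0.53. The 18S control moved with age on the same arrays, and its part in the change was not tested.

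Some of the larger differences did not pass, and in these the arrays of an age were often far apart. Mrpl58, a peptidyl-tRNA hydrolase built into the large subunit that releases chains from stalled ribosomes, read 8.48 and 8.07 at 2 mo, 8.46 and 7.28 at 6 mo, 4.85 and 7.50 at 12 mo, and 4.75 and 4.05 at 21 mo. Its trend value of −4.04 ± 0.86 was the lowest of the 74, with a limma adjusted p of 0.064. The 12 mo A array lay with those at 21 mo and 12 mo B with those at 6 mo. Mrpl57, whose 12 mo arrays read 5.96 and 8.14, gave −2.18 ± 0.72 (limma adjusted p = 0.16). Mrps26, which read 9.63 and 9.66 at 2 mo and 7.72 and 7.95 at 21 mo, gave −2.01 ± 0.38 (limma adjusted p = 0.053).

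At the other end stood 3 large subunit genes, none of which passed. Mrpl50 had the highest value, 1.71 ± 0.75 (limma adjusted p = 0.27), but its 2 mo arrays read 6.92 and 4.50 and its 21 mo arrays 7.96 and 6.99. Its other probe set gave 1.23, also not past the threshold. Mrpl35 gave 0.56 ± 0.36 and Mrpl9 0.48 ± 0.94, the latter with 9.04 and 6.23 on the 12 mo arrays. Of the 53 probe sets not chosen for a gene, 47 were negative with age and 0 were past the threshold. Many of these were read near the floor, and 67.3% of all genes were negative with age, so this count adds little.

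**Figure D3:**
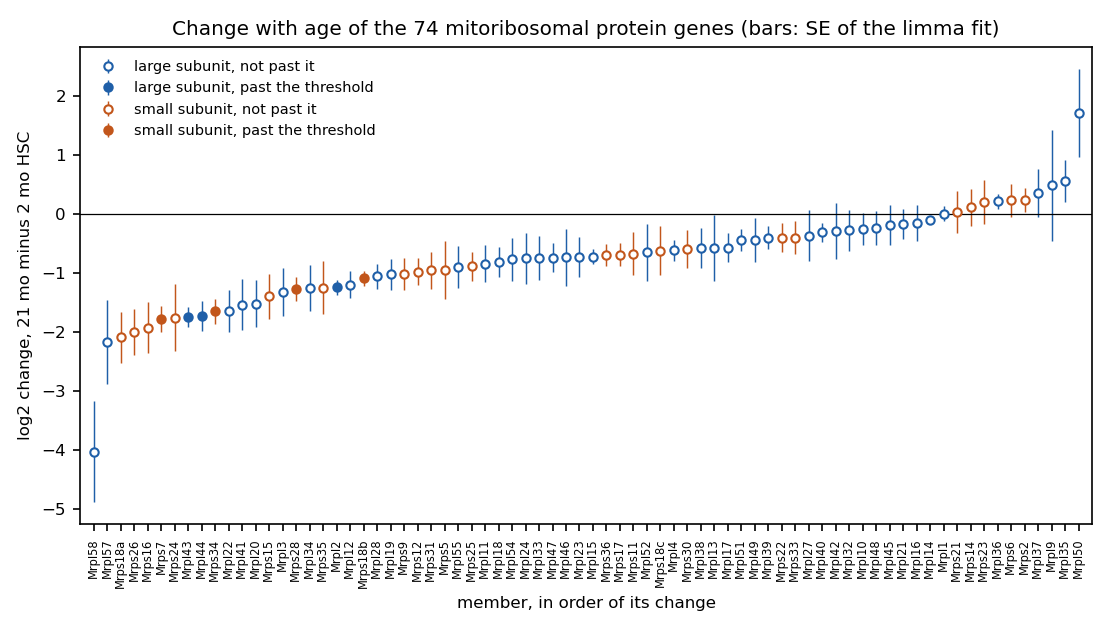
Log2 change from 2 to 21 mo of WT HSC (y axis, with SE of the limma trend) for each of the 74 mitoribosomal protein genes, in order of change (x axis), large subunit in blue and small subunit in orange, filled where past the threshold. All 7 filled points lie below 0, and points with larger changes and long bars, such as Mrpl58, are open.

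Both subunits took part. In the large subunit 41 of 47 genes were negative with a median of −0.65 and 3 fell, and in the small subunit 22 of 27 were negative with a median of −0.96 and 4 fell. The large subunit median was thus 0.31 higher, and this difference ranged from 0.15 to 0.38 as single arrays were left out. It was 0.13 with group means in place of the trend. Within the large subunit the genes with a bacterial counterpart, numbered up to 36, had a median of −0.73 (27 genes) and those particular to mitochondria −0.62 (20 genes). Within the small subunit these medians were −0.96 (15 genes, numbered up to 21) and −0.93 (12 genes).

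Mrps18 is a family of 3 paralogs that share a bacterial relative, and Mrps18a has been placed in the large subunit despite its name. Mrps18a read 7.50 and 7.90 at 2 mo, 7.27 and 6.02 at 6 mo, 5.93 and 6.26 at 12 mo, and 5.79 and 5.20 at 21 mo, a change of −2.10 ± 0.43 (limma adjusted p = 0.060). Mrps18b fell, as given above. Mrps18c read 8.16 and 7.87 at 2 mo and 7.71 and 7.03 at 21 mo, a change of −0.63 ± 0.42 (limma adjusted p = 0.49). All 3 were therefore lower at 21 mo, and of these Mrps18b passed.

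Several members are known for roles beside the mitoribosome, and none of these passed with age. Mrpl12, which also binds the mitochondrial RNA polymerase, gave −1.20 ± 0.23 (limma adjusted p = 0.052), with 9.06 and 8.71 at 2 mo, 8.07 on both 6 mo arrays, and 7.77 and 7.32 at 21 mo. Mrpl41, also described as a regulator of cell death and the cell cycle, gave −1.54 ± 0.43 (adjusted p = 0.11 in limma). Mrps30, also described in cell death, gave −0.61 ± 0.32. It is counted here by its name, although it has been placed in the large subunit. Mrpl18, whose bacterial relative binds 5S RNA, gave −0.82 ± 0.25. Mrps36, since assigned to the 2-oxoglutarate dehydrogenase complex, gave −0.70 ± 0.18 with most HSC arrays under log2 5.

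Promoters of mitoribosomal genes are known for sites of the ETS factors, NRF1 and YY1, and the promoters of the genes that fell, or had the 3 lowest changes, are shown here. RefSeq start sites on mouse build GRCm38.p6 were available for 65 of the 74 genes. The sequences are the 80 bases that precede the start of transcription, with capitals for the letters CCGGAAG, the core of an ETS site. The windows are chr17:46646141-46646220 (plus strand) for Mrpl2, chr19:45006443-45006522 (minus strand) for Mrpl43, chr1:79775938-79776017 (plus strand) for Mrpl44, chr14:57826159-57826238 (plus strand) for Mrpl57, chr11:115403672-115403751 (plus strand) for Mrpl58, chr17:46110924-46111003 (plus strand) for Mrps18a, chr17:35916441-35916520 (minus strand) for Mrps18b and chr11:115604060-115604139 (plus strand) for Mrps7.
Mrpl43: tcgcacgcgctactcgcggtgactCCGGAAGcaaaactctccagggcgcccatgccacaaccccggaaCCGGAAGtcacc
Mrps18a: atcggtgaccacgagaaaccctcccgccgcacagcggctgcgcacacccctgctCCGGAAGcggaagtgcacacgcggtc
Mrpl58: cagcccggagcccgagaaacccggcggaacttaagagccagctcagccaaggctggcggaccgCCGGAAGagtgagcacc
Mrpl2: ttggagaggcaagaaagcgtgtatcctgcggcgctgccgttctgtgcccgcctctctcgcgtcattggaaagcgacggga
Mrpl44: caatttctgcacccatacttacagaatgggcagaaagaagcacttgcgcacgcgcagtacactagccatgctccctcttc
Mrpl57: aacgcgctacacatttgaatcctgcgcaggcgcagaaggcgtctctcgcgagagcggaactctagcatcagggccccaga
Mrps18b: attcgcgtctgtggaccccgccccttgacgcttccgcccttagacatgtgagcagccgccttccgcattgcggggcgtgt
Mrps7: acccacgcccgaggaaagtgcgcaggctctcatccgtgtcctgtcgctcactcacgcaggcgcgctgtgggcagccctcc

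Mrpl43 held the ETS letters at 2 places in this window, and Mrps18a and Mrpl58 at 1 place each, while the other 5 windows held none of the motifs searched. Those motifs were CCGGAAG for ETS, GCATGCG for NRF1 and AAGATGG for YY1, read on both strands; the NRF1 letters overlap with their own reverse complement, and such overlaps were counted as 1 promoter. In the full 300 bases, from 250 before to 50 after the start, 24 of the 65 promoters (36.9%) held the ETS letters, against 9.93% of the 27025 genes of the promoter table. NRF1 letters were in 8 (12.3%, against 4.01%) and YY1 letters in 12 (18.5%, against 7.28%). At least 1 of the 3 was in 36 (55.4%, against 19.3%), with similar shares in the large (56.1%) and the small subunit (54.2%). NRF1 letters alone were in 7 of 41 large and 1 of 24 small subunit genes. Among the 17492 protein-coding genes of the table the shares were higher for ETS (12.9%), NRF1 (4.96%) and any motif (22.6%), and 7.18% for YY1. Of the 5 genes that fell and have a promoter in the table, Mrpl43, Mrps18b and Mrps7 held at least 1 motif and Mrpl2 and Mrpl44 none. These are matches of letters and say nothing of binding.

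At 2 mo, many mitoribosomal genes were higher in HSC than in WBM. The difference, HSC minus WBM, was positive for 59 of the 74 genes with a median of 0.70, beside −0.01 over all genes and 0.16 over those that reached log2 5. Without the adjustment 24 genes were higher in HSC and 2 lower in limma, where 15.7% and 12.6% of all genes were. Of the 6788 genes that reached log2 5, 1864 were higher and 1451 lower by this rule. With the adjustment 18 genes were higher in HSC and 0 lower. Of all genes, 13.3% were then higher and 10.5% lower, and 23.5% and 17.8% of those that reached log2 5. The count of 18 of 74 was thus near the background of well-read genes, and the absence of lower genes was not. The small subunit held 10 of its 27 genes past the threshold (median 0.79) and the large subunit 8 of 47 (median 0.66). This comparison uses the same 2 mo HSC arrays as the change with age, so the values of a gene in both are not independent.

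Of the genes that passed, the 4 with the largest differences carry small subunit names. Mrps16, with a bacterial counterpart that helps to assemble the small subunit, read 8.49 and 8.45 in 2 mo HSC and 4.93 and 6.01 in WBM, 2.999 ± 0.55 higher (limma adjusted p = 0.011), although the WBM arrays were far apart. Mrps7 read 6.06 and 5.71 in WBM and was 2.96 ± 0.24 (7.76-fold) higher in HSC (limma adjusted p = 5.18e-04). It was lower in WBM than on any HSC array.

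Mrps18a, placed in the large subunit as given above, with 4.96 and 5.23 in WBM, was 2.61 ± 0.44 higher in HSC (limma adjusted p = 0.0081). Mrps5, whose bacterial relative takes part in accurate decoding, read 7.35 and 7.28 in 2 mo HSC and 4.57 and 4.94 in WBM, 2.56 ± 0.37 higher (limma adjusted p = 0.0046), with the WBM values near the floor. A weak second probe set of Mrps5 did not show this difference (−0.02).

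Mrps26 (1.99 higher), Mrps34 (1.93), Mrps25 (1.93) and Mrpl38 (1.89) followed, and a second probe set of Mrps25 also passed, with 1.46. Mrps34 read 6.09 and 6.08 in WBM, under every HSC array. The other 10 genes, from 1.69 to 1.15, were Mrpl4, Mrpl43, Mrps12, Mrps18b, Mrps9, Mrpl3, Mrpl22, Mrpl12, Mrpl2 and Mrpl44. Mrpl3 was just inside the threshold (limma adjusted p = 0.0499), and its other well-read probe set gave −0.15. Mrpl58 gave the highest value of the 74, 3.12 ± 0.90, but did not pass (limma adjusted p = 0.056). Of the probe sets not chosen, 4 were higher in HSC past the threshold. Besides that of Mrps25, these belong to Mrpl28 (1.68), Mrps23 (1.55) and Mrpl15 (1.24). The chosen probe sets of these genes gave 0.89, 0.23 and 0.32 and did not pass. Without WBM array A 11 genes passed, where 9.12% of all genes were higher in HSC.

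The genes that read higher in WBM did not pass. Mrpl50 gave −1.42 ± 0.80, Mrpl27, with 8.69 and 8.08 in 2 mo HSC and 9.58 and 9.98 in WBM, −1.40 ± 0.46 (limma adjusted p = 0.088), and Mrps18c −1.24 ± 0.44 (limma adjusted p = 0.11). Mrpl51, with 10.4 and 10.1 in HSC and 10.9 and 11.2 in WBM, had an adjusted p of 0.030 in limma but stayed under 2-fold, at −0.79 ± 0.19. The Mrps18 paralogs differed in direction, with Mrps18a and Mrps18b higher in HSC and Mrps18c reading higher in WBM.

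WBM is a mixture, so for bulk RNA of this kind fewer cells of a type and less RNA per cell cannot be told apart. Its 12 neutrophil markers averaged 12.5 and 12.7 against 5.18 and 4.77 in 2 mo HSC, and of 20 cell cycle genes 16 were lower in HSC, with a median of −3.04. Mitoribosomal genes and cell cycle genes therefore lay on opposite sides in this comparison. With age they lay on the same side, since 16 of the 20 cell cycle genes were negative, with a median of −0.60 and 2 past the threshold. Of all genes, 67.3% were negative with age, with a median of −0.02, and 2.03% fell past the threshold. On both 21 mo arrays 12 of the 20 reached log2 5. The part of cell cycle in the change with age was not tested. The part of cell composition was not tested.

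HSC of the older ages stood closer to WBM, in contrasts chosen after the values were seen. In 6 mo HSC 16 genes were higher and 4 lower than in WBM, with a median of 0.44. In 12 mo HSC 6 were higher and 5 lower, with a median of 0.06, and in 21 mo HSC 5 were higher and 4 lower, with a median of −0.08. The backgrounds of all genes moved less, from 12.8% higher and 10.1% lower at 6 mo, through 11.3% and 9.21% at 12 mo, to 9.76% and 8.36% at 21 mo. At 21 mo, Mrps7, Mrps5, Mrps25, Mrpl4 and Mrpl38 were still higher than in WBM, by 1.07 to 1.91, and Mrpl18, Mrpl51, Mrps18c and Mrps28 were lower, by values from −1.23 to −1.88. The differences share the WBM arrays at every age.

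**Figure D4:**
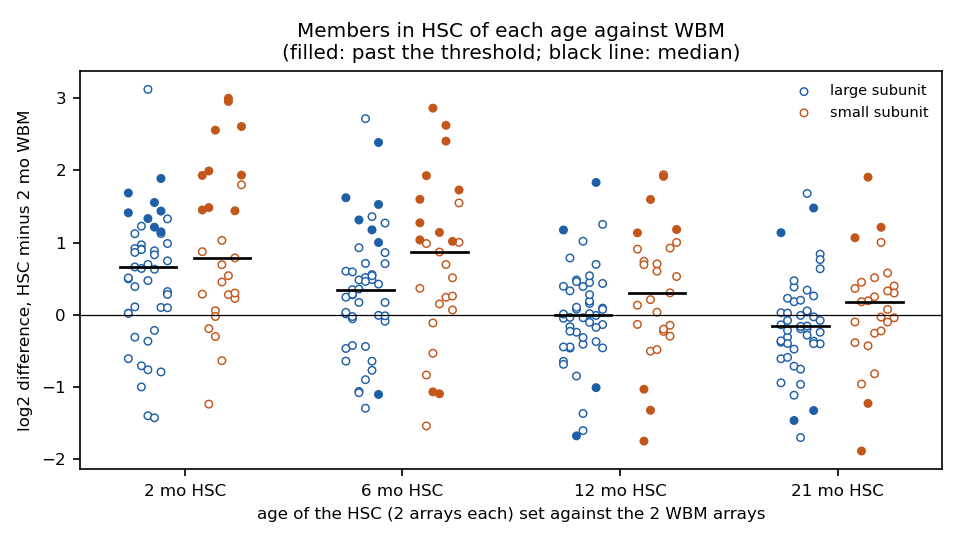
Log2 difference of HSC minus 2 mo WBM (y axis) for the 74 genes with HSC of 2, 6, 12 and 21 mo (x axis), large subunit in blue and small subunit in orange, filled where past the threshold, with the median as a black line. Counts of genes higher in HSC go from 18 at 2 mo to 5 at 21 mo, while the genes lower in HSC go from 0 to 4.

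Among p53 genotypes at 12 mo, no mitoribosomal gene passed the threshold. Of all genes, 0.0807% were higher and 0.113% lower in p53+/- than in WT HSC, 0.137% higher and 0.307% lower in p53+/m than in WT, and 0.0888% higher and 0.129% lower in p53+/m than in p53+/-, so calls were few throughout. The medians over the 74 genes were −0.20, −0.29 and −0.03, beside −0.06, −0.09 and −0.01 over the genes that reached log2 5. Without the adjustment, 2 genes were higher and 9 lower in p53+/- than in WT (0.888% and 2.21% of all genes), 0 higher and 5 lower in p53+/m than in WT (1.44% and 3.04%), and 1 higher and 0 lower in p53+/m than in p53+/- (1.71% and 1.86%). The 3 contrasts share arrays. Both mutant means lay below the WT mean in 44 of the 74 genes (59.5%), against 45.9% of all genes and 42.1% of those that reached log2 5.

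Relative to 2 mo WT HSC the members' medians were −0.81 in p53+/- and −0.88 in p53+/m, and −0.56 in WT at 12 mo. The counts against WT changed when 1 WT array was left out, although 12 mo WT is then a single array, assumed to vary as the other groups do. Without 12 mo A, 5 genes were higher and 8 lower in p53+/- than in WT, where 2.22% and 2.44% of all genes were, and 2 higher and 3 lower in p53+/m than in WT (1.07% and 1.38%). Calls therefore rose over all genes too. Without 12 mo B 1 gene was lower in p53+/m than in WT (3.07% of all genes), and without the p53+/m B array 1 was higher (0.186%).

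Mrpl4 came nearest to the threshold between the mutants. It read 8.90 and 8.61 in WT, 9.73 and 9.56 in p53+/- and 8.83 and 8.58 in p53+/m, a difference of −0.94 ± 0.17 for p53+/m minus p53+/- (limma adjusted p = 0.098). The p53+/- arrays were above all others at 12 mo. Mrpl12 was similar, with 8.01 and 7.88 in WT, 8.23 and 8.58 in p53+/- and 7.53 and 7.38 in p53+/m, a difference of −0.95 ± 0.19 (limma adjusted p = 0.12).

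The brighter probe set of Mrpl50 gave the lowest value of p53+/- minus WT, with 6.98 and 7.08 in WT, 4.31 and 4.11 in p53+/- and 6.25 and 6.13 in p53+/m. That value was −2.82 ± 0.73 (limma adjusted p = 0.25), but the other probe set, read at a similar level, gave −0.05. For p53+/m minus p53+/- the brighter probe set gave 1.98 ± 0.73 and the other −0.66, so the probe sets of this gene disagreed on both contrasts. In p53+/- against WT the lowest values after Mrpl50 were those of Mrpl58 (−1.48 ± 0.94) and Mrpl22 (−1.36 ± 0.34), and the highest those of Mrpl9 (1.98 ± 0.83), Mrpl16 (1.06 ± 0.23) and Mrpl4 (0.89 ± 0.17). With 12 mo A left out Mrpl58 gave −2.81 and Mrpl9 3.39. With 12 mo B left out these were −0.15 and 0.58.

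In p53+/m against WT the lowest were Mrpl27 (−1.66 ± 0.56), Mrps21 (−1.11 ± 0.29) and Mrps24 (−1.06 ± 0.56), and the highest Mrpl9 (0.95 ± 0.83), Mrpl16 (0.72 ± 0.23) and Mrps11 (0.57 ± 0.32, under log2 5 on all arrays). With 12 mo A left out Mrpl9 gave 2.35, Mrps24 −2.04 and Mrpl16 1.10. With 12 mo B left out Mrpl9 turned to −0.46, and Mrps24 gave −0.08 and Mrpl16 0.35. Between the mutants, Mrpl27 (−1.22 ± 0.56) and Mrpl9 (−1.04 ± 0.83) were lowest and Mrpl58 (1.16 ± 0.94) and Mrpl52 (0.93 ± 0.48) high after Mrpl50. The genes that fell with age gave values between −0.72 (Mrpl44 in p53+/m) and 0.54 (Mrps7 in p53+/-) against WT.

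**Figure D5:**
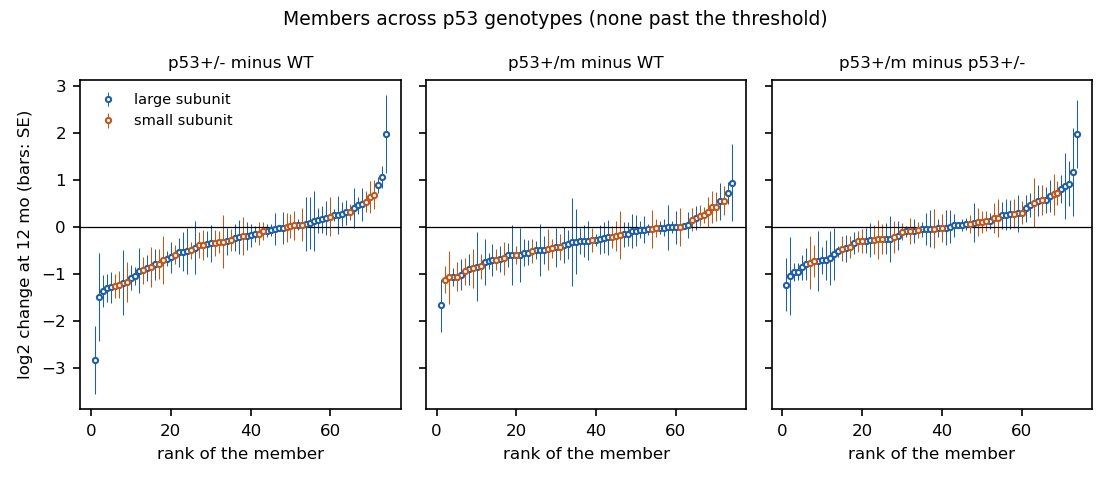
Log2 change at 12 mo (y axis, with SE of the limma fit) of the 74 genes in rank order (x axis) for p53+/- minus WT, p53+/m minus WT and p53+/m minus p53+/-, large subunit in blue and small subunit in orange. No gene is past the threshold, and the points run from −2.82 to 1.98.

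Other genes of mitochondrial translation were read from lists, with these shares as background. With age 2.03% of all genes fell and 1.45% rose, and 3.57% of those that reached log2 5 fell. Against WBM 13.3% of all genes were higher in HSC and 10.5% lower, and 23.5% and 17.8% of those that reached log2 5. Of 4 mitoribosomal proteins named otherwise, none passed with age, where Gadd45gip1 gave −1.67 ± 0.46 and Chchd1 −1.43 ± 0.48 (limma adjusted p = 0.11 and 0.16), and both were higher in 2 mo HSC than in WBM, by 2.60 ± 0.49 and 1.91 ± 0.40. Of 9 translation factors none passed with age (median −0.80), and 3 were higher in HSC than in WBM, among them Mtfmt, which formylates the initiator tRNA (3.41 ± 0.31, limma adjusted p = 7.94e-04), and the recycling factor Mrrf (1.48 ± 0.22). A list of 11 genes, mostly mitochondrial aminoacyl-tRNA synthetases, which charge tRNA, had a median of −0.05 with age and −0.22 against WBM. In this list Qrsl1, a subunit of an amidotransferase and not a synthetase, was lower in HSC.

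Of 31 genes for mitochondrial transcription, rRNA and ribosome assembly, 1 fell with age, Mettl17, an assembly factor of the small subunit (−1.49 ± 0.22, limma adjusted p = 0.033). This count was near the share of genes that reached log2 5 and fell (3.57%). In HSC against WBM 7 of the 31 were higher, near the share of genes that reached log2 5 (23.5%), and 2 were lower (17.8%). The rRNA methyltransferase paralogs moved apart, with Tfb2m higher (2.17 ± 0.39) and Tfb1m lower (−2.14 ± 0.25) in HSC. Of 73 nuclear genes of oxidative phosphorylation, whose products join those made by the mitoribosome, 3 fell with age (Ndufs8, Ndufa8 and Cyc1) and 0 rose, with a median of −0.48. The count of 3 was also near the share of genes that reached log2 5 and fell.

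The cytosolic ribosome, for comparison, had a median of −0.34 with age over 41 genes, with 0 past the threshold. Without the adjustment 5 were lower, where 7.72% of all genes were. Against WBM 24 of the 41 were higher in HSC and 0 lower, where 23.5% and 17.8% of the genes that reached log2 5 were. Of the other cell types, 3 of 8 monocyte markers (Ly86, Csf1r and Ccr2) and 2 of 12 neutrophil markers (Lcn2 and Mmp8) rose with age, where 1.45% of all genes did. At 2 mo 1 of the 8 monocyte markers was higher in HSC than in WBM, by 6.06, so this list does not read monocytes alone. The mean level of the monocyte list was 4.83 to 5.31 at 2 mo and 6.80 to 7.10 at 21 mo. That of the neutrophil list was 4.77 to 5.18 at 2 mo, lower at 6 mo (3.69 and 4.15), and 5.61 to 6.43 at 21 mo, while Elane stayed at the floor (2.27 at 21 mo). The part of cells of these types in the change with age was not tested.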

How the data were processed

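RNA was measured on Affymetrix MOE430A arrays. Images were processed with MAS 5.0 by the authors, who deposited log2 values from GC-RMA, 1 for each probe set (GCRMA per the submitters' processing notes, version not given in the sources used here). Ages were taken from the sample titles, since another label field names 2 mo for every sample.

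The 22626 probe sets other than 64 controls were used as deposited, with no filter on low values. Of these, 20380 carry 1 gene symbol, 691 several and 1555 none. Linear models were fitted with limma 3.58.1 (R 4.3.3), p-values were adjusted over all probe sets by the Benjamini-Hochberg method, and calls needed an adjusted p below 0.05 together with a 2-fold change. Age used a quadratic trend over 8 WT HSC arrays, HSC against WBM the group means of 10 WT arrays, and genotypes those of 12 HSC arrays. Recovery of known changes was tested first on simulated data, with noise drawn independently for each probe set and array. That test cannot speak to differences shared across a whole array.

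The genes, lists and tests were chosen with earlier results of these data known. All genes were counted. Those named had passed, on the chosen or another probe set, or had the 3 highest or lowest values of a comparison. Others had probe sets of unlike sign, or belong to Mrps18 or to those with other known roles. The number of arrays limits the precision. Motifs were searched with Python 3.11.15.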

Additional observations from a re-analysis of the deposited data

How the results depend on the processing

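The median change with age stayed negative under every alternative run, from −0.92 to −0.46 (21 mo against 6 mo, an alternative chosen after seeing the data), and was −0.53 without 21 mo B. No gene passed as risen under any of them, although 1 rose at an unadjusted p without 2 mo A. The count of genes that fell with age, 7, ranged from 0 to 19 as single arrays were left out, a group of 1 array then being taken to vary like the others, and was 20 of the 68 well-read genes with a filter on low values, 12 with the mean of a gene's probe sets (2.74% of all genes), 24 at an unadjusted p, 11 with a straight line (3.06%), 17 without both 12 mo arrays and 0 for 21 mo against 6 mo. The labels do not say whether the letters A and B pair arrays across groups. The r of A minus B between groups ran from −0.307 to 0.163, with 2 of 21 pairs of groups above 0.1. Such values cannot show whether arrays of a letter were handled together. With a replicate block for the letters, 4 genes fell with age, where 0.871% of all genes fell. In the same setting 16 were higher in HSC than in WBM, where 12.5% of all genes were.

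The large minus small subunit difference with age, 0.31, was 0.21 with quantile normalization, 0.44 with the mean of a gene's probe sets, 0.13 with group means or without both 12 mo arrays, and 0.15 to 0.38 with an array left out. This difference stayed between 0.13 and 0.44 over all alternatives. Among them was a split by place, with Mrps18a and Mrps30 in the large subunit and Mrps36 left out. Against WBM it was −0.13, reversed to 0.13 without 2 mo HSC A, reached −0.48 without 2 mo HSC B, and was −0.38 with the mean of probe sets. Genes higher in HSC than WBM ranged from 11 to 21 with an array left out, and genes lower from 0 to 1, with 2 under the filter or at an unadjusted p, and 1 with no fold limit or with only the 2 mo arrays.

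Between genotypes, leaving out an array gave 0 to 5 genes higher and 0 to 8 lower in p53+/- than WT, with a median from −0.38 to −0.080, and 0 to 2 higher and 0 to 3 lower in p53+/m than WT, with a median from −0.44 to −0.15. At an unadjusted p these were 2 and 9, then 0 and 5, and 1 gene was higher in p53+/m than in p53+/-. Of 1126 values of single genes under an alternative, 995 kept direction and call, 79 lost and 50 gained the call, and 2 reversed, Mrpl50 between the mutants (−0.66) and Mrpl9 in p53+/m against WT (−0.46 without 12 mo B and 2.35 without 12 mo A). The cause of these changes was not tested.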
